A study of Mus musculus with 12 samples.

Results

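Testes of 2 mice at postnatal day (PND) 14 were compared with testes of 2 mice at PND 7, the interval in which germ cells of the first spermatogenic wave enter meiosis. The mice were chosen by the age in their labels, and they make up 4 of the 10 mice and 6 of the 12 libraries of the series, since the RNA of a PND 7 mouse was split over 2 barcodes and their counts were added. All were C57BL/6NHsd, an inbred laboratory strain, with no allele or treatment named for either age, and the RNA was that of the whole organ, so each library mixes germ cells with Sertoli, Leydig, peritubular, vascular and blood cells. In such RNA, fewer cells of a type and less RNA per cell cannot be told apart. The total count on genes was 9656345 and 7037654 in PND 7 mouse 1 and mouse 2 and 7795744 and 7169408 in PND 14 mouse 1 and mouse 2.

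In the juvenile testis, germ cells advance from spermatogonia to spermatocytes in near synchrony, so the age of the mouse sets the most advanced germ cell present. Spermatogonia respond to retinoic acid by expressing Stra8, then replicate their DNA and enter meiotic prophase, where programmed DNA breaks are made and repaired while homologous chromosomes are joined by the synaptonemal complex. Spermatids, which build the acrosome and the flagellum and replace histones by transition proteins and protamines, form only after meiosis and later than PND 14.

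Values are given as CPM (counts scaled to library size) on the scale of edgeR's TMM normalization, in the order mouse 1, mouse 2. A gene was called higher or lower at PND 14 at a Benjamini-Hochberg adjusted p under 0.05 in edgeR's quasi-likelihood test (hereafter edgeR adjusted p) and a fold change of at least 2, in a fit that shares the spread of all 10 mice. Each age has 2 mice, so p-values measure the spread between these few mice, and for 1 gene the smallest p that exact permutation allows is 0.333. Of 16860 genes tested, 13.5% were called higher and 5.43% lower, and the median log2 fold change was 0.11. These values over all genes are the background for every gene list below. With limma on RPKM and the study's limits, 3.65% of 26788 genes were called, 3.21% higher and 0.437% lower. A count of 0 in both PND 7 mice allows up to 3 counts over both together, which is 0.172 CPM, and folds against such genes are lower bounds that cover counting error only. There were 554 such genes among those called higher, and 7 genes called lower had no count in either PND 14 mouse.

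PND 14 mouse 1 stood apart from PND 14 mouse 2 by RNA of late spermatids. Of 22 late spermatid markers, every one was higher in mouse 1, with a range of 1.43 to 61.0 CPM and a median of 12.8 CPM, against 0 to 4.47 CPM and a median of 0.855 CPM in mouse 2. Prm1, a protamine that packs sperm DNA, was at 0 CPM in both PND 7 mice, 52.7 CPM in PND 14 mouse 1 and 1.05 CPM in PND 14 mouse 2. The PND 17 mice, which are older, were at 1.40 and 0.968 CPM, close to PND 14 mouse 2. Tnp1, a transition protein, was at 0.60 and 0 CPM at PND 7, 55.6 and 1.97 CPM at PND 14 and 2.23 and 2.18 CPM at PND 17. Akap4, which encodes the main protein of the fibrous sheath of the sperm tail, was at 0 CPM in both PND 7 mice and at 61.0 and 3.02 CPM at PND 14. As a share of the mean level of the PND 28 mice, the 22 markers reached a median of 3.19% in PND 14 mouse 1 and of 0.185% in PND 14 mouse 2. Summed over the list, the markers made up 2.90 and 0 CPM at PND 7, 435 and 24.8 CPM at PND 14 and 31.0 and 32.4 CPM at PND 17. edgeR called 20 of the 22 higher with all mice and 13 without PND 14 mouse 1, while 9 were called without PND 7 mouse 2. With PND 14 mouse 2 alone, Prm1 lay at least 6.11-fold above the PND 7 floor.

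**Figure D1:**
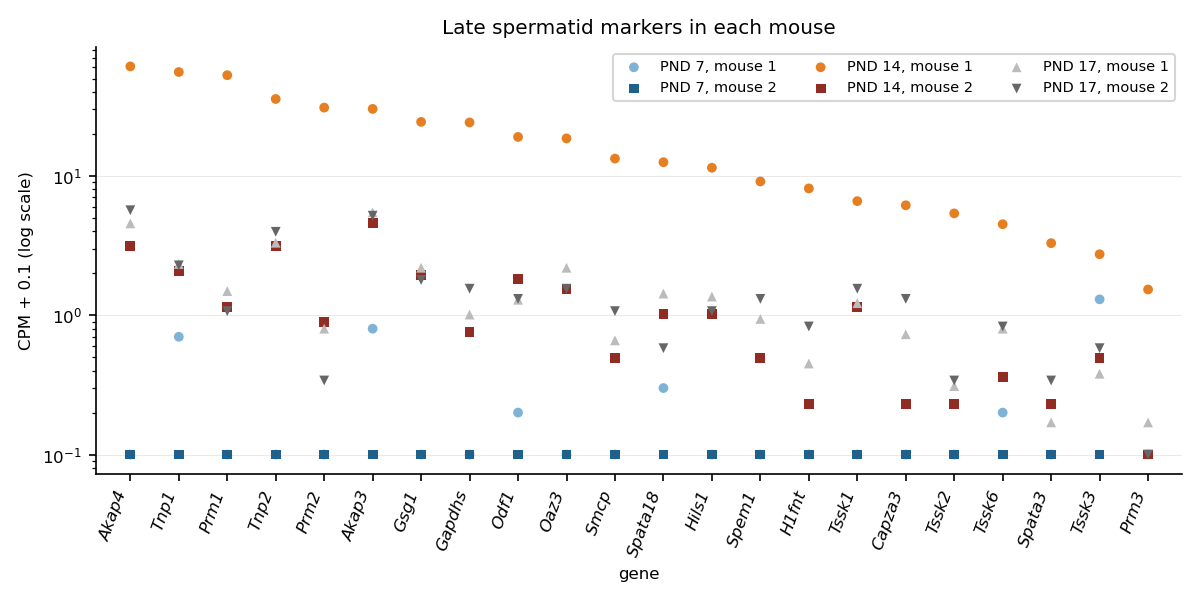
Level of each of 22 late spermatid markers (x axis) in single mice, as CPM plus 0.1 on a log axis. Points of PND 14 mouse 1 lie above those of PND 14 mouse 2 and of both PND 17 mice for every gene, and most PND 7 points lie at 0, where the 2 mice coincide.

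For this reason, values are given for each mouse, and counts or medians of the gene lists are repeated without PND 14 mouse 1. The fit without that mouse tested 17964 genes and called 11.6% higher and 4.70% lower. It held 80.6% of the genes called higher and 60.8% of the genes called lower in the fit with all mice. The number of genes called lower, 916 with all mice, was 1409 without PND 7 mouse 1, 411 without PND 7 mouse 2 and 282 without PND 14 mouse 2. Where a call is given as lost without certain mice, each was left out alone. Among the 2275 genes called higher, 202 were more than 4 times higher in PND 14 mouse 1 than in PND 14 mouse 2, and 33 were more than 4 times higher in mouse 2. Among genes with at least 10 CPM in mouse 1, the 10 with the largest excess over mouse 2, at 22.6 to 80.4 times, were Pmfbp1, Prm1, Prm2, Fam71d, Gapdhs, Chl1, Smcp, Tnp1, Galntl5 and Spata19. Pmfbp1, required for the junction of the sperm head and tail, was at 10.6 CPM in mouse 1 and 0.131 CPM in mouse 2, and it was not called (edgeR adjusted p = 0.07).

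Of 19 tested genes of undifferentiated spermatogonia, 1 was called higher and 0 lower, with all mice and without PND 14 mouse 1, beside 13.5% and 5.43% over all genes. Their median log2 fold change was -0.35, and 4 were called when PND 7 mouse 1 was left out. Gfra1, the GDNF receptor of stem cells, was at 4.91 and 4.97 CPM at PND 7 and 3.74 and 8.68 CPM at PND 14, and Zbtb16, a repressor that keeps stem cells undifferentiated, was at 45.1 and 21.8 CPM and 25.1 and 27.6 CPM. The mice of the ages overlapped for both genes (edgeR adjusted p = 0.713 for Gfra1 and 0.48 for Zbtb16). The gene called was Id4, an inhibitor of helix-loop-helix factors, with 4.91 and 5.64 CPM at PND 7 and 20.9 and 37.5 CPM at PND 14. Its log2 fold change was 2.47 ± 0.33. Here and below, ± gives an approximate SE, the absolute log2 fold change divided by the square root of the test's F statistic. Of 12 genes of differentiating spermatogonia, 2 were called higher and 1 lower, also without PND 14 mouse 1, which is no smaller a share than over all genes. Kit, the receptor that marks their differentiation, was at 122 and 109.8 CPM at PND 7 and 104 and 76.9 CPM at PND 14 (edgeR adjusted p = 0.33). Ccnd2, a D-type cyclin of spermatogonia, fell from 165 and 158 CPM to 53.4 and 41.5 CPM, a log2 fold change of -1.76 ± 0.26 (edgeR adjusted p = 0.000784). Tex101, a surface protein of germ cells, rose from 40.2 and 28.1 CPM to 297 and 479.7 CPM, and Dmrtb1 rose from 13.0 and 7.79 CPM to 24.3 and 34.8 CPM. The call of Dmrtb1 was lost when PND 7 mouse 2 or PND 14 mouse 2 was omitted.

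Stra8, the gatekeeper of meiotic entry, did not differ between the ages beyond the spread of the mice, at 69.2 and 67.3 CPM at PND 7 and 79.0 and 65.3 CPM at PND 14 (log2 fold change 0.08 ± 0.28, edgeR adjusted p = 0.862). Among 20 tested genes of the retinoic acid pathway, 3 were called higher and 2 lower, beside 13.5% and 5.43% over all genes. The numbers were equal without PND 14 mouse 1. Lrat, which stores retinol as esters, rose from 1.60 and 0 CPM to 7.70 and 14.3 CPM, and Rdh11, a retinal reductase, from 10.8 and 23.4 CPM to 65.8 and 134 CPM. Aldh1a2, which makes retinoic acid from retinal, rose from 32.1 and 29.4 CPM to 61.4 and 79.9 CPM, and its relative Aldh1a1 was at 539 and 476 CPM at PND 7 and 542 and 711 CPM at PND 14 (edgeR adjusted p = 0.421). The receptor Rara fell from 31.9 and 34.5 CPM to 17.1 and 7.36 CPM. The number of called genes in this list was 3 when PND 7 mouse 2 was left out and 2 for PND 14 mouse 2, and the call of Rara was lost in both of these fits. The call of Rara was also lost without PND 7 mouse 1, and that of Aldh1a2 without PND 14 mouse 2.

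Most genes of the synaptonemal complex and of the chromosome axis rose. Of 14 tested genes, 10 were called higher and 0 lower, with a median log2 fold change of 1.82, and the same numbers were called without PND 14 mouse 1. Sycp1, the transverse filament that holds homologs together, was at 111 and 105 CPM at PND 7 and 443 and 672 CPM at PND 14, a log2 fold change of 2.37 ± 0.25 (edgeR adjusted p = 8.63e-05). Sycp3, a core protein of the axis (chr10:87922314-87935981 in mm9), rose from 56.6 and 49.8 CPM to 224 and 330.5 CPM, which is 5.20-fold. Both genes were thus well above the floor at PND 7. The PND 14 mice exceeded the PND 7 mice without overlap, as held for 2255 of the 2275 genes called higher. Hormad1, which marks axes that are not yet joined, rose from 10.4 and 7.39 CPM to 86.2 and 126 CPM (11.8-fold, edgeR adjusted p = 1.67e-05). The gene 4930404A10Rik, named Meikin in RefSeq, encodes a kinetochore protein of meiosis I and had 0 counts in both PND 7 mice and 12.7 and 24.3 CPM at PND 14, at least 73.5-fold above the floor in the lower mouse. The 4 genes of the list that were not called were Syce2, Rec8, Rad21l and Stag3. Syce2, a central element protein, was at 71.7 and 60.7 CPM at PND 7 and 66.1 and 75.8 CPM at PND 14, and Rec8, the meiotic kleisin of cohesin, was at 20.6 and 9.54 CPM and 26.2 and 17.6 CPM. For Stag3, also of cohesin, the change from 148 and 174 CPM to 290.0 and 306 CPM passed the p threshold and missed the fold limit (log2 fold change 0.89 ± 0.22, edgeR adjusted p = 0.016).

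Of 38 tested genes of meiotic DNA breaks and their repair, 17 were called higher and 0 lower, with a median log2 fold change of 0.95, and 16 were called higher without PND 14 mouse 1. Prdm9, the methyltransferase that sets the sites of breaks, was at 17.4 and 11.6 CPM at PND 7 and 13.9 and 13.5 CPM at PND 14 (edgeR adjusted p = 0.884). Spo11, the enzyme that makes the breaks, rose from 6.71 and 2.28 CPM to 40.2 and 57.4 CPM (10.5-fold, log2 fold change 3.40 ± 0.39, edgeR adjusted p = 0.000177). Dmc1, the recombinase of meiosis, rose from 24.7 and 40.0 CPM to 66.1 and 76.4 CPM, a call lost without PND 7 mouse 1 or PND 14 mouse 2. Spata22 and 4930528F23Rik, named Meiob in RefSeq, encode a pair of proteins that bind single-stranded DNA in meiosis, and both had a log2 fold change of 4.45. Spata22 was at 4.51 and 0.537 CPM at PND 7 and at 48.5 and 68.5 CPM at PND 14, and 4930528F23Rik at 3.60 and 1.34 CPM and at 46.1 and 66.4 CPM.

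Among factors of crossover formation, Cntd1, needed for the maturation of crossovers, rose from 2.60 and 2.55 CPM to 69.99 and 148 CPM (41.9-fold, edgeR adjusted p = 1.13e-05), and Hfm1, a helicase, from 18.4 and 16.8 CPM to 141 and 229 CPM. Msh4, a MutS homolog that stabilizes recombination intermediates, rose from 5.51 and 8.87 CPM to 40.1 and 46.8 CPM. Of the checkpoint kinases, Atr, which coats unjoined axes, rose from 201 and 198 CPM to 684 and 849 CPM (3.84-fold), and Atm, which responds to breaks, stayed at 189 and 179 CPM beside 184 and 172 CPM (edgeR adjusted p = 0.895). Genes of this list that were already counted at PND 7 and were not called include Brca2 with 126 and 132 CPM at PND 7 and 112 and 93.6 CPM at PND 14, Tex11 with 113 and 85.9 CPM and 106 and 117 CPM, and Tex15 with 666 and 487 CPM and 680.3 and 610.0 CPM. Of 8 genes that attach telomeres to the nuclear envelope and move them, 5 were called higher and 0 lower, also without PND 14 mouse 1. Ccdc155, which links telomeres to dynein and is also known as Kash5, rose from 8.31 and 3.49 CPM to 53.0 and 61.8 CPM, and Sun1, its anchor in the inner membrane, was at 90.2 and 144 CPM and at 148 and 133 CPM (edgeR adjusted p = 0.443).

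**Figure D2:**
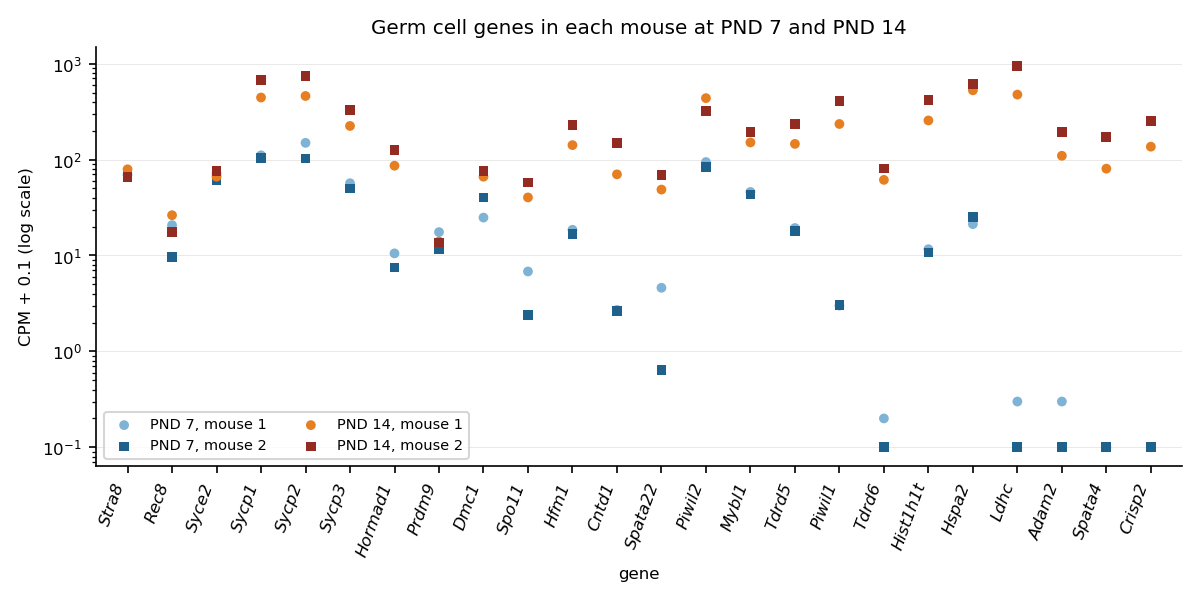
Level of 24 germ cell genes (x axis) in each mouse, as CPM plus 0.1 on a log axis. Stra8, Rec8, Syce2 and Prdm9 lie at similar levels at both ages, whereas from Sycp1 onwards most genes are higher in both PND 14 mice, and Spata4 and Crisp2 have no count in either PND 7 mouse.

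The pathway of piRNAs, small RNAs that silence transposons and guard germ cell transcripts, showed the same direction in most of its genes. Of 26 genes tested, 20 were called higher and 0 lower, with a median log2 fold change of 1.98, and 20 were called higher without PND 14 mouse 1. Piwil1, the PIWI protein of pachytene spermatocytes (chr5:129242121-129261349 in mm9), rose from 2.90 and 2.96 CPM to 235 and 409 CPM, which is 109-fold (log2 fold change 6.77 ± 0.36, edgeR adjusted p = 5.02e-06). Piwil2, present from the prospermatogonium on, rose from 94.1 and 83.8 CPM to 437 and 321 CPM, and Piwil4, the PIWI protein of fetal germ cells, was at 5.71 and 9.81 CPM and at 3.30 and 3.42 CPM (edgeR adjusted p = 0.119). Tdrd6, a scaffold of the chromatoid body, had 0.10 and 0 CPM at PND 7 and 61.3 and 80.7 CPM at PND 14. Mybl1, the transcription factor A-MYB of pachytene spermatocytes, was counted at PND 7, at 45.9 and 43.0 CPM, and rose to 151 and 192 CPM (log2 fold change 1.95 ± 0.22, edgeR adjusted p = 0.00013). Other members lay between these, as Tdrd5 rose from 19.2 and 18.0 CPM to 145 and 236 CPM, Tdrd1 from 48.5 and 50.4 CPM to 269 and 429 CPM and Ddx4, the germ cell helicase VASA, from 108 and 73.0 CPM to 284 and 406 CPM. Tex19.1, which restrains retrotransposons, was at 29.7 and 27.1 CPM and at 22.7 and 32.1 CPM.

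Proteins that bind and store messenger RNA in germ cells had 11 of 22 genes called higher and 1 lower, beside 13.5% and 5.43% over all genes. Ybx2, which masks stored transcripts, rose from 8.71 and 3.23 CPM to 196 and 270.3 CPM (38.3-fold), and Boll, a DAZ family protein of germ cells, from 15.6 and 12.4 CPM to 74.6 and 96.4 CPM. Dazl, of the same family, was at 374 and 314 CPM at PND 7 and at 599 and 706 CPM at PND 14, which missed the fold limit (log2 fold change 0.93 ± 0.21, edgeR adjusted p = 0.012). Ythdc2 and its partner Gm1564, named Meioc in RefSeq, which end the mitotic program, rose from 56.2 and 54.8 CPM to 117 and 121 CPM and from 65.7 and 90.8 CPM to 227 and 282 CPM. Ythdc1, a nuclear reader of methylated RNA, fell from 100.015 and 113 CPM to 54.0 and 42.6 CPM, a call lost when any 1 of the 4 mice was left out. That of Ythdc2 was lost without PND 7 mouse 2, and without PND 14 mouse 1 the list had 14 genes called higher and 0 lower.

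The genes called higher were examined for sequence elements in their promoters. The 250 bases before the transcript start of Sycp3, Hormad1, Piwil1 and Hydin, an axonemal protein of the flagellum described with its list, are printed from RefSeq promoter sequences on GRCm38.p6. They were chosen after their sequences were seen, to show members of the axis, piRNA and flagellum lists that hold several elements within short distances. The strand is that of the gene, and capitals mark matches to a MYB site (AACNGNC), an E box (CACGTG), an E2F site (TTCCCGC) or an X box element (GTTGCCA) on either strand.
Sycp3, chr10:88459337-88459586, plus strand: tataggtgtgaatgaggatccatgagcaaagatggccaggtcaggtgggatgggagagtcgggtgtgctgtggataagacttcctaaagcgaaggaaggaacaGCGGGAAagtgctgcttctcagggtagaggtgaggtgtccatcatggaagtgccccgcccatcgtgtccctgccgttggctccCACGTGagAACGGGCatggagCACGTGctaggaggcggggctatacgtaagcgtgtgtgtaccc
Hormad1, chr3:95559427-95559676, plus strand: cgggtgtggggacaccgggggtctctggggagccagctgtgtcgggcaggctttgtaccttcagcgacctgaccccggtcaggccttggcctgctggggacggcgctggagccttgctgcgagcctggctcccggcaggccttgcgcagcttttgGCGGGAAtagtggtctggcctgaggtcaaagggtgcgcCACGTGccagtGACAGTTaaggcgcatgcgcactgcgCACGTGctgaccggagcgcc
Piwil1, chr5:128735996-128736245, plus strand: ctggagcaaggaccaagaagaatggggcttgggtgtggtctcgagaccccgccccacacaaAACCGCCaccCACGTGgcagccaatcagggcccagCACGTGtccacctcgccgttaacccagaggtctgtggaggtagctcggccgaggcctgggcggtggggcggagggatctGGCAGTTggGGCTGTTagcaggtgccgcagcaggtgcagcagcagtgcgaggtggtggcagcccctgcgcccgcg
Hydin, chr8:110266727-110266976, plus strand: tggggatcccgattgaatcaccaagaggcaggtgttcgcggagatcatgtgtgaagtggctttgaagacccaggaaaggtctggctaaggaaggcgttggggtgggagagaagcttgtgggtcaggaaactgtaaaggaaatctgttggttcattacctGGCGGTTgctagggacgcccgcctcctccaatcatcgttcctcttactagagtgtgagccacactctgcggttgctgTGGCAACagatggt

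In Sycp3 and Hormad1, a MYB site lies between 2 E boxes. In Sycp3 the E boxes begin 64 and 43 bases before the start and the MYB site 56 bases before it, and in Hormad1 they begin at 57 and 20 bases with the MYB site at 46 bases. Piwil1 holds 3 MYB sites and 2 E boxes, and Hydin holds a MYB site 91 bases and an X box element 14 bases before the start. Over the promoters of the tables as a whole, read from 250 bases before to 50 bases after the start and counted once per gene if any of its listed promoters matched, 47.8% of 1555 genes called higher held a MYB site, against 34.9% of 621 called lower and 36.7% of 9385 tested genes not called. An X box element was found in 10.3% of those called higher, 3.06% of those called lower and 4.25% of those not called. In the same order, the shares were 10.9%, 11.1% and 11.4% for the E box, 9.26%, 9.50% and 9.22% for the E2F site, 2.96%, 2.90% and 3.46% for the cyclic AMP response element TGACGTCA and 11.5%, 9.50% and 11.1% for the STRA8 site CNCCTCAG. Of all 32851 promoters in the table, 32.8% held a MYB site, 4.38% an X box element, 7.15% an E box, 4.60% an E2F site, 1.79% the cyclic AMP response element and 7.94% a STRA8 site. Within lists the shares differed. MYB sites were in 7 of 13 promoters of the synaptonemal complex and axis list and 10 of 20 of the piRNA list. They were in 15 of 26 of the recombination list and 25 of 39 of the flagellum list. The acrosome list had them in 8 of 21, the DNA replication list in 11 of 26 and the peritubular list in 10 of 24. E boxes were in 6 of 13 promoters of the synaptonemal complex and axis list and 9 of 20 of the piRNA list, E2F sites in 6 of 13 and 1 of 20, and also in 10 of 26 of the recombination list and 12 of 26 of the DNA replication list, in which 1 gene was called, and X box elements in 6 of 39 of the flagellum list. A match is a run of letters and was not tested for binding.

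Genes of DNA replication, which germ cells use both in mitosis and before meiosis, had few calls. Of 32 tested, 1 was called higher and 0 lower, also without PND 14 mouse 1, with a median log2 fold change of 0.01, beside a background of 13.5% and 5.43% over all genes. Mcm2, of the replicative helicase, was at 82.4 and 57.8 CPM at PND 7 and 62.8 and 83.6 CPM at PND 14. The gene called was Gins1, of the same helicase complex, which rose from 10.5 and 4.70 CPM to 22.7 and 47.1 CPM (edgeR adjusted p = 0.00419). A second gene was called without PND 7 mouse 1. Of 43 tested cyclins, kinases and spindle checkpoint genes, 11 were called higher and 4 lower, 13 and 3 without PND 14 mouse 1, and 9 were called in all without PND 7 mouse 2 or without PND 14 mouse 2. Ccna1, the A-type cyclin of spermatocytes, rose from 0.20 and 0 CPM to 3.74 and 4.21 CPM, and Ccna2, its mitotic relative, was at 71.4 and 69.2 CPM and at 52.2 and 72.7 CPM. Nek2 and Bub1, which act at centrosomes and kinetochores, rose from 36.7 and 23.0 CPM to 97.9 and 152 CPM and from 78.6 and 72.4 CPM to 169 and 216 CPM. Cdc20, the activator of the anaphase ubiquitin ligase, rose from 29.4 and 23.4 CPM to 84.5 and 92.7 CPM. Mki67, a marker of cycling cells, fell from 312 and 343 CPM to 164 and 149 CPM, and this call was lost without PND 7 mouse 2, without PND 14 mouse 2 and with scaling by library totals.

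Of 35 genes of histone variants and chromatin, 9 were called higher and 0 lower, beside 13.5% and 5.43% over all genes. Their median log2 fold change was 0.31, and 0.21 without PND 14 mouse 1. Hist1h1t, the linker histone of pachytene spermatocytes, rose from 11.5 and 10.6 CPM to 256 and 421 CPM (30.5-fold, log2 fold change 4.93 ± 0.44, edgeR adjusted p = 3.13e-05). Hist1h2ba, the testis H2B, was already at 265 and 147 CPM at PND 7 and rose to 993 and 1219.8 CPM. Brdt, a bromodomain protein that reads acetylated histones, rose from 12.8 and 7.39 CPM to 130 and 216 CPM, and Phf7, a histone ubiquitin ligase, from 11.5 and 5.78 CPM to 259 and 439.8 CPM (39.9-fold). The spermatid linker histones Hils1 and H1fnt were called as well, but their counts lay mainly in PND 14 mouse 1, with Hils1 at 11.3 and 0.920 CPM and H1fnt at 8.03 and 0.131 CPM. The call of H1fnt was lost without PND 14 mouse 1 or either PND 7 mouse.

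Genes of energy metabolism, including isoenzymes that germ cells use in place of common forms, were among the largest changes. Of 24 tested, 20 were called higher and 0 lower with all mice, and 18 and 0 without PND 14 mouse 1. The median log2 fold change was 4.90, or 4.50 when the 7 genes with 0 counts at PND 7 were set at their lower bound. Ldhc, the lactate dehydrogenase of spermatocytes and sperm, had 0.20 and 0 CPM at PND 7 and 475 and 943 CPM at PND 14, and 1430 and 896 CPM at PND 17. Gk2, a glycerol kinase, and Fbp1, fructose bisphosphatase, had no count at PND 7 and were at 47.9 and 97.0 CPM and at 44.2 and 99.0 CPM at PND 14, at least 278-fold and 257-fold above the floor in the lower mouse. Pgk2, the retrogene of phosphoglycerate kinase, also had no count at PND 7 and was at 28.3 and 23.8 CPM at PND 14 (at least 138-fold). For these 4 genes both PND 14 mice carried the rise. The mice of the ages did not overlap, as held for 2255 of the 2275 genes called higher. Other genes of the list were counted mainly in PND 14 mouse 1. Gapdhs, the glyceraldehyde phosphate dehydrogenase of sperm, was at 24.1 CPM in PND 14 mouse 1 and 0.657 CPM in mouse 2, and Atp1a4, the sodium pump subunit of sperm, at 18.0 and 1.05 CPM. Slc2a3, a glucose transporter, rose from 13.1 and 12.2 CPM to 369 and 689 CPM (41.6-fold).

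Levels of 32 germ cell genes were set beside 33 related partner genes per length, as RPKM in the deposited files. For a PND 7 mouse this is the mean RPKM of its 2 barcodes. Most partners are widely used genes, but Piwil2, the partner of Piwil1, is itself a germ cell gene. Of the germ cell genes 23 were called higher, 0 lower and 9 were not called, and of the partners 2, Ldha and Piwil2, were called higher and 3 lower. The call of Ldha was lost without PND 7 mouse 1 or PND 14 mouse 2. At PND 7 Ldhc was at 0.115 and 0 RPKM, Ldha at 2.98 and 8.70 RPKM and Ldhb at 39.8 and 31.8 RPKM. At PND 14 Ldhc was at 357 and 654 RPKM, Ldha at 11.9 and 24.3 RPKM and Ldhb at 61.5 and 54.9 RPKM. In these values from unique reads, the RPKM of Ldhc exceeded that of both partners in each PND 14 mouse. Hspa2, a heat shock protein of spermatocytes, went from 8.72 and 11.1 RPKM to 248 and 267 RPKM, beside Hspa8, its housekeeping relative, at 146 and 113 RPKM and then 147 and 329 RPKM. Cox7b2, a cytochrome oxidase subunit of testis, rose from 19.8 and 13.0 RPKM to 103 and 189 RPKM, and its X-linked partner Cox7b fell from 26.1 and 14.8 RPKM to 4.63 and 5.57 RPKM. Among all tested protein-coding genes on the X chromosome, 10.1% were called lower and 6.53% higher. Of the 13 partners on the X chromosome, 3 were called lower and 0 higher. Besides Cox7b these were Rbmx, a splicing factor, which fell from 14.8 and 19.2 RPKM to 5.97 and 2.43 RPKM, and the ribosomal protein gene Rpl39, whose call was lost when any 1 of the 4 mice was left out. Counts of Rpl39 and other genes with near-identical copies are uncertain, because the counting kept unique reads, and those of overlapping or antisense genes are uncertain because the use of strand in counting is not given in the sources used here. Some pairs did not shift, as the share of Taf7l in the RPKM of Taf7l and Taf7 together was 72.0% and 79.3% at PND 7 and 75.3% and 65.2% at PND 14.

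**Figure D3:**
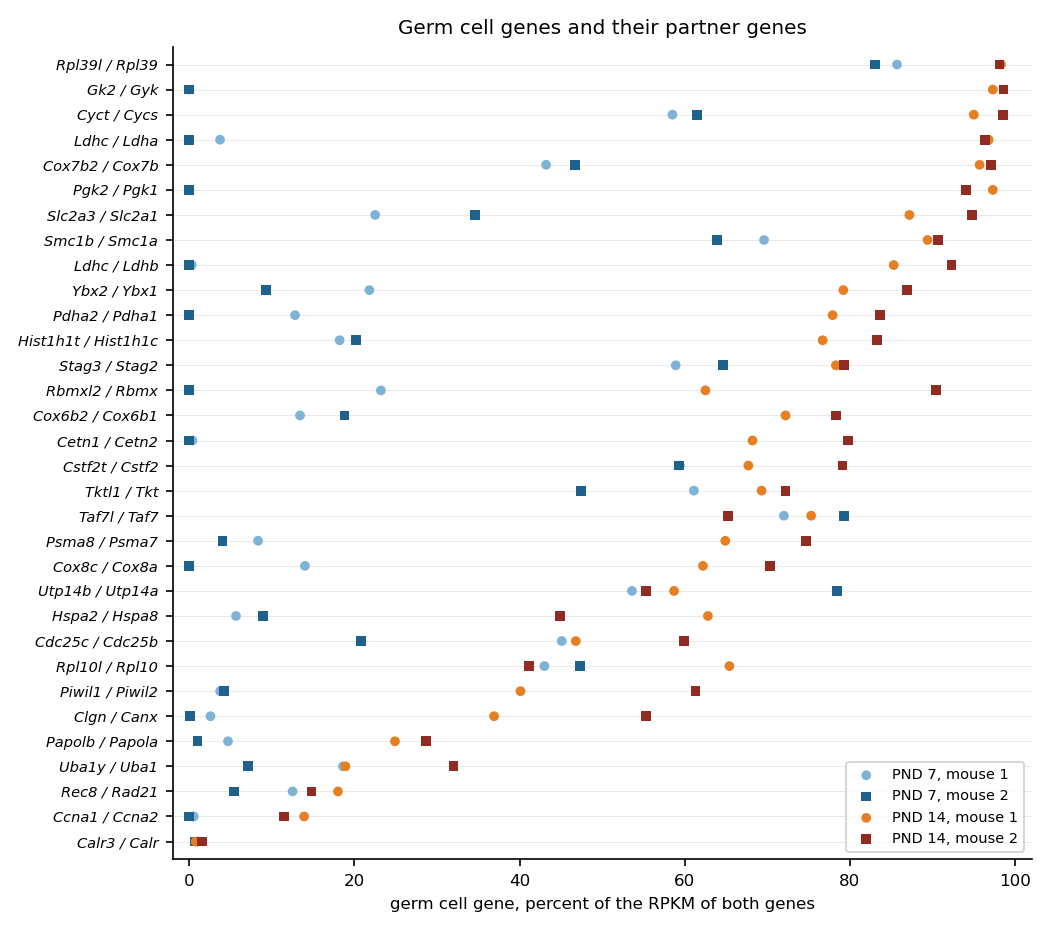
Share of a germ cell gene in the summed RPKM of the gene and its partner gene (x axis, percent) for 32 pairs (y axis), with 1 point per mouse. In most pairs both PND 14 points lie to the right of both PND 7 points, from near 0% to above 80% for Ldhc beside Ldhb, while the ages overlap for Taf7l, Utp14b, Rpl10l and Calr3.

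Chaperones of germ cells had 11 of 16 genes called higher and 0 lower, and 9 without PND 14 mouse 1. Hspa2, also required for taking the synaptonemal complex apart, had counts of 21.1 and 25.1 CPM at PND 7 and 527 and 615 CPM at PND 14 (24.7-fold, edgeR adjusted p = 6.57e-06). Clgn, a chaperone of the endoplasmic reticulum needed for sperm surface proteins, rose from 6.51 and 0.269 CPM to 194 and 316 CPM, and the heat shock factor Hsf5 from 3.40 and 1.88 CPM to 105 and 186 CPM. Hsf2, counted at 56.7 and 43.4 CPM, was at 41.9 and 40.5 CPM at PND 14 (edgeR adjusted p = 0.375).

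Many genes of structures that are assembled in spermatids rose, part of them in both PND 14 mice. For the acrosome and the binding of sperm to the egg, 20 of 27 tested genes were called higher and 0 lower, and 15 higher and 1 lower, namely Adam1a, without PND 14 mouse 1. The median log2 fold change was 6.13, or 3.98 with the 11 genes that had 0 counts at PND 7 at their lower bound. Adam2 and Adam3, membrane proteins of sperm that act in migration and binding, rose from 0.20 and 0 CPM to 109 and 193 CPM and from 0.40 and 0 CPM to 46.0 and 61.1 CPM. Dpy19l2, which anchors the acrosome to the nucleus, rose from 0 and 0.134 CPM to 31.6 and 53.1 CPM, and Spink2, an inhibitor of the acrosomal protease, from 0.10 and 0 CPM to 25.4 and 60.5 CPM. Mouse 2, with the lower late spermatid level, was the higher of the PND 14 mice for each of these 4 genes. Others went with mouse 1, as Acrv1, a protein of the acrosomal matrix, was at 6.16 and 1.05 CPM and Spaca3 at 2.64 and 0.394 CPM. Izumo1, the egg-binding protein of sperm, was low at both ages, at 1.00 and 3.49 CPM and at 2.64 and 1.58 CPM (edgeR adjusted p = 0.992).

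For the flagellum and its axoneme, 35 of 44 tested genes were called higher and 0 lower, and 32 were called higher without PND 14 mouse 1. The median log2 fold change was 4.59, or 3.92 with 9 genes at their bound. Dnahc8, a heavy chain of axonemal dynein, rose from 21.8 and 25.7 CPM to 552 and 669 CPM (25.7-fold, edgeR adjusted p = 1.74e-05). Spata4 had no count at PND 7 and 80.2 and 172 CPM at PND 14, at least 466-fold above the floor in the lower mouse. Spag17 and Hydin, of the central pair, rose from 0.601 and 0 CPM to 63.1 and 75.3 CPM and from 3.80 and 0 CPM to 33.6 and 23.8 CPM. Tekt1, a filament protein of doublet microtubules, rose from 0.40 and 0 CPM to 17.7 and 24.7 CPM. Within the CatSper calcium channel the subunits differed, since Catsperb had no count at PND 7 and 13.8 and 28.0 CPM at PND 14, while Catsper1 had no count at PND 7 and 2.53 and 0.131 CPM at PND 14 and lost its call without PND 14 mouse 1. Rfx2, a factor that binds X boxes, rose from 5.01 and 0.806 CPM to 37.1 and 33.5 CPM (log2 fold change 3.53 ± 0.56, edgeR adjusted p = 0.00139), whereas Rfx3 of the same family was at 29.4 and 30.6 CPM and at 30.3 and 17.7 CPM (edgeR adjusted p = 0.428).

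**Figure D4:**
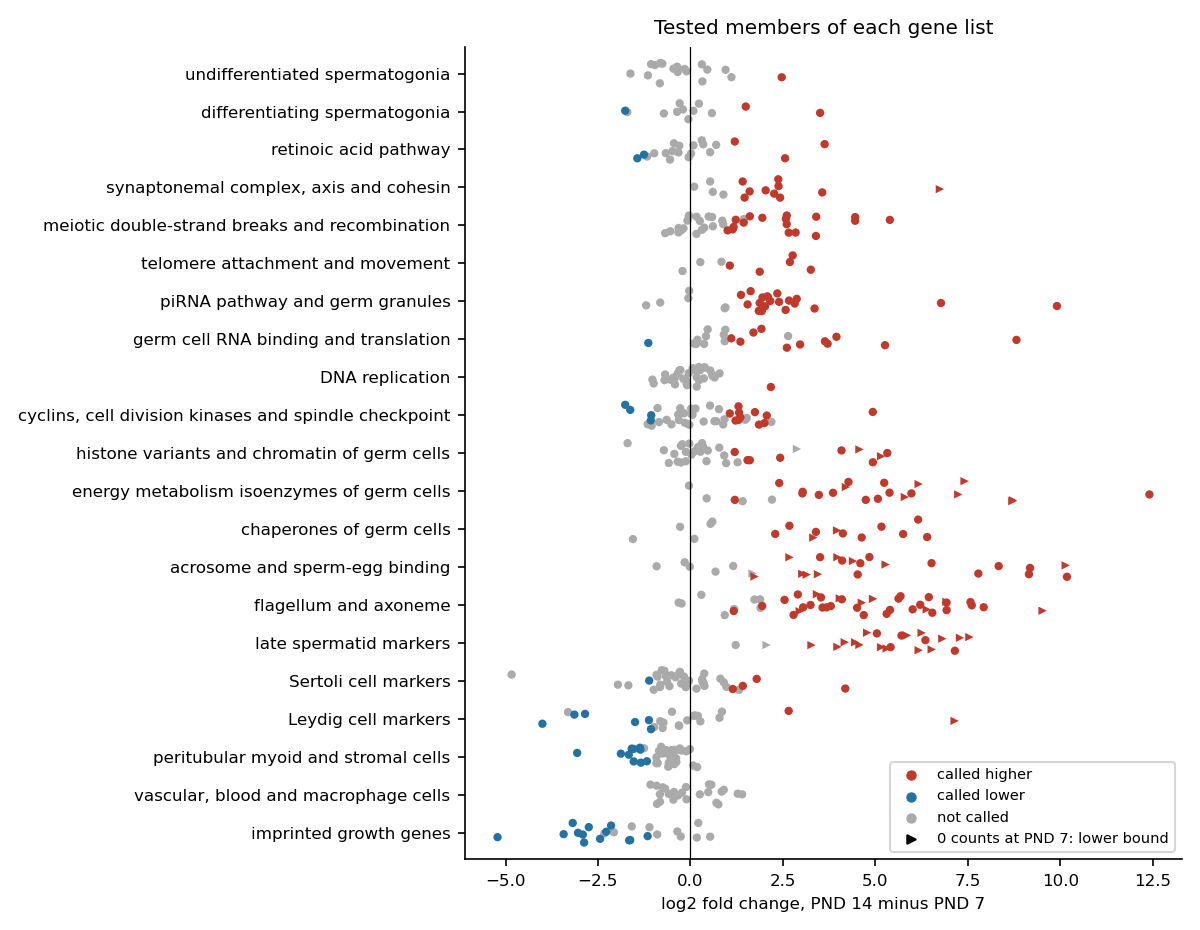
Log2 fold change from PND 7 to PND 14 (x axis) of the tested members of 21 gene lists (y axis, points spread within a list), with triangles at the lower bound for genes that had 0 counts in both PND 7 mice. The lists of meiosis, piRNA and sperm structures lie mostly right of 0, DNA replication lies around 0, and the peritubular and imprinted lists lie mostly left of 0.

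The X chromosome, whose genes are silenced in pachytene spermatocytes, had fewer rises and more falls than the autosomes. Of 597 tested protein-coding genes on the X, 39 (6.53%) were called higher and 60 (10.1%) lower, with a median log2 fold change of -0.22. On the autosomes together 13.6% were called higher and 5.45% lower, with a median of 0.08, single autosomes reached up to 15.8% higher and ranged from 4.12% to 6.61% lower, and each had a larger share called higher than the X. Without PND 14 mouse 1 the X had 3.96% higher and 8.08% lower, and the autosomes 11.7% and 5.01%. These shares describe the chromosomes and were not tested. With mitochondrial genes left out, the X took 3.97% of the counts in each PND 7 mouse and 3.13% and 2.59% in the PND 14 mice. Mid1, a ubiquitin ligase of microtubules, was the X-linked gene among the 10 largest falls of the rule on large changes. It fell from 119 and 152 CPM to 16.6 and 15.8 CPM (log2 fold change -3.06 ± 0.52, edgeR adjusted p = 0.00218). X-linked genes outside that rule fell further, as Agtr2 did from 19.6 and 45.7 CPM to 3.08 and 2.37 CPM (log2 fold change -3.57). Ogt, which attaches N-acetylglucosamine to proteins, and Atrx, a chromatin remodeler, were chosen after their values were seen, and they fell from 709.9 and 748 CPM to 346 and 193 CPM and from 316 and 371 CPM to 133 and 98.2 CPM. Of the 9 tested Y-linked genes, Zfy1 and Zfy2, a pair of zinc finger genes, were called higher and Kdm5d, a histone demethylase, lower, and these were also named after their values were seen. Zfy1, at 0.801 and 0 CPM at PND 7 and 3.30 and 2.63 CPM at PND 14 (edgeR adjusted p = 0.048), lost its call without PND 14 mouse 1. Zfy2 was at 0.40 and 0.134 CPM at PND 7 and 4.62 and 3.55 CPM at PND 14.

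**Figure D5:**
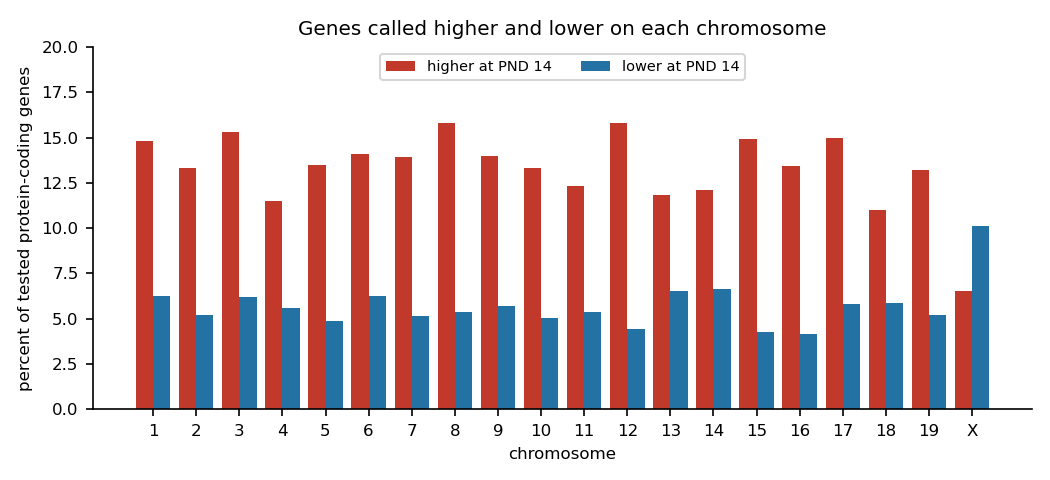
Percent of tested protein-coding genes called higher (red) and lower (blue) at PND 14 on each chromosome, with the Y left out for its 9 tested genes. The X is the single chromosome shown with more genes called lower, 10.1%, than higher, 6.53%.

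No list of somatic cells had a larger share called higher than the 13.5% over all genes, where 5.43% were called lower. For Sertoli cell markers with all mice, neither share was larger than over all genes. Defining markers of Sertoli, Leydig and peritubular cells were counted at both ages, as the label of whole testis requires. Of 39 Sertoli cell markers 4 were called higher and 1 lower, with a median log2 fold change of -0.25, and 3 were called without PND 7 mouse 2. Without PND 14 mouse 1, 2 were called higher and 2 lower, as Gata1 and Cldn5 lost their calls and Clu, which encodes clusterin, was called lower. Amh, the hormone of immature Sertoli cells, was at 31.5 and 14.0 CPM at PND 7 and 18.9 and 7.62 CPM at PND 14 (edgeR adjusted p = 0.272), and Sox9, their determining factor, was at 73.8 and 85.3 CPM and at 51.6 and 28.1 CPM (edgeR adjusted p = 0.104). Vim, an intermediate filament protein, fell from 447 and 561 CPM to 272 and 193 CPM, a call lost without PND 7 mouse 2 or PND 14 mouse 2. Drd4, a dopamine receptor, rose from 13.9 and 10.1 CPM to 41.8 and 41.5 CPM, and the X-linked gene Tsx from 1.20 and 0.134 CPM to 20.6 and 6.05 CPM. The PND 14 mice differed from each other in some Sertoli genes, as Clu was at 1153 and 441 CPM, and the summed level of the list was 5541 and 4406 CPM at PND 14 beside 6037 and 5530.0 CPM at PND 7. Mitochondrial genes took 37.26% and 36.71% of counts at PND 7 and 25.36% and 25.69% at PND 14, and small structural RNAs 3.84% and 3.31%, then 4.31% and 8.28%. The part of such differences in the gene results was not tested.

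Of 23 tested Leydig cell markers, 2 were called higher and 6 lower, 2 and 5 without PND 14 mouse 1, and 5 were called in all without PND 7 mouse 2. Hsd3b6, the 3-beta-hydroxysteroid dehydrogenase of adult Leydig cells, had no count in the PND 7 mice and 17.1 and 31.4 CPM at PND 14, at least 99.1-fold above the floor in the lower mouse. Srd5a1, the 5-alpha-reductase of the juvenile testis, rose from 1.90 and 2.55 CPM to 13.5 and 14.5 CPM (log2 fold change 2.65 ± 0.41, edgeR adjusted p = 0.00121). Inhba, the activin subunit of fetal Leydig cells, fell from 7.81 and 21.6 CPM to 0.880 and 0.920 CPM (log2 fold change -4.00, edgeR adjusted p = 0.0028), and Thbs2, a matrix protein of fetal Leydig cells, from 61.8 and 56.7 CPM to 19.5 and 22.5 CPM. Hsd17b3, the last enzyme of testosterone synthesis and a gene of adult Leydig cells, fell too, from 64.5 and 47.6 CPM to 8.03 and 4.60 CPM (log2 fold change -3.14 ± 0.50). Genes common to both populations did not change by the test, with Star at 48.3 and 17.9 CPM at PND 7 and 50.1 and 26.0 CPM at PND 14 (edgeR adjusted p = 0.833) and Cyp11a1 at 49.2 and 81.2 CPM and 41.0 and 51.0 CPM (edgeR adjusted p = 0.466).

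Among peritubular and stromal genes, 0 of 37 were called higher and 10 lower, 0 and 8 without PND 14 mouse 1, with a median log2 fold change of -0.64. The number called depended on single mice, at 3 when PND 7 mouse 2 was left out and 4 for PND 14 mouse 2. Postn, a matrix protein of growing mesenchyme, fell from 57.0 and 112 CPM to 7.92 and 12.4 CPM (8.35-fold, edgeR adjusted p = 0.000295), and the collagen gene Col5a1 from 78.9 and 126 CPM to 42.1 and 28.1 CPM. Among targets of hedgehog signalling, Gli1 fell from 25.1 and 39.9 CPM to 10.5 and 7.10 CPM and Ptch1 from 148 and 167 CPM to 80.6 and 41.5 CPM. Both lost their calls without PND 7 mouse 2 or PND 14 mouse 2. Their ligand Dhh, made by Sertoli cells, was at 85.4 and 65.6 CPM and at 56.6 and 40.7 CPM (edgeR adjusted p = 0.0928). Acta2, the actin of contractile myoid cells, was at 186 and 231 CPM at PND 7 and 194 and 191 CPM at PND 14 (edgeR adjusted p = 0.783). Of 24 tested genes of vessels, blood and macrophages none was called by edgeR, with all mice or without PND 14 mouse 1, while leaving out PND 7 mouse 1 or PND 14 mouse 2 gave 1 call each. DESeq2 called 0 of them. At an unadjusted p under 0.05 there were 5 genes, beside 6253 of all 16860 genes tested by edgeR.

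Of 23 tested imprinted genes, many of a network that acts in fetal growth, 13 were called lower, 10 were not called and 0 were higher, with a median log2 fold change of -2.07, and 11 were called lower without PND 14 mouse 1. Igf2, the fetal growth factor, fell from 52.0 and 60.6 CPM to 17.3 and 8.02 CPM (log2 fold change -2.15 ± 0.42, edgeR adjusted p = 0.00526), and its neighbour H19 from 113 and 104 CPM to 8.14 and 12.1 CPM. On chromosome 12, the maternally expressed RNAs Meg3 and Rian fell from 168 and 169.8 CPM to 34.8 and 11.04 CPM and from 208 and 216 CPM to 35.3 and 42.7 CPM. Plagl1, a zinc finger factor of this network, fell from 98.4 and 89.3 CPM to 17.7 and 7.10 CPM, and Peg3 from 239 and 276 CPM to 97.9 and 65.1 CPM. The mice of the ages did not overlap for any of these 6 genes, as held for all 916 genes called lower. Grb10, a growth inhibitor, was at 95.8 and 88.0 CPM and at 68.6 and 84.8 CPM (edgeR adjusted p = 0.373), and Peg10 was at 97.7 and 98.1 CPM and at 170 and 113 CPM (edgeR adjusted p = 0.261).

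By size alone, the largest falls among genes averaging 10 CPM or more, with mice of an age within 2-fold of each other, were smaller than the largest rises. The rule takes genes with no overlap between the ages, and the 10 largest falls ran from -2.81 to -3.43 in log2 fold change. They were H19, Epha2, Hsd17b3, Postn, Mid1, Zim1, Lpcat2, Erbb3, Rps26, a ribosomal protein gene with many near-identical copies, and Serpine2. Epha2, an ephrin receptor, fell from 37.0 and 30.4 CPM to 3.52 and 3.68 CPM (edgeR adjusted p = 0.000287), and Erbb3, a neuregulin receptor, from 39.1 and 26.5 CPM to 4.62 and 3.94 CPM. Both stayed low in the PND 17 mice, at 2.72 and 1.69 CPM and at 5.44 and 3.87 CPM. The call of Lpcat2 was lost without PND 14 mouse 2. The 10 largest rises were 1700016M24Rik, Crisp2, Fsip2, Gm14244, Heatr7b2, Ldhc, 4933440M02Rik, Dkkl1, Cmtm2a and Gm10619, and 9 of them had no count in either PND 7 mouse. Fsip2, a fibrous sheath partner, was at 138 and 157 CPM at PND 14 and Dkkl1, an acrosomal protein, at 45.2 and 78.7 CPM, at least 804-fold and 263-fold above the floor in the lower mouse.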

How the data were processed

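Total RNA of whole testes was sequenced on the SOLiD 4 platform as 50 bp color space reads. Per the study's methods, the authors aligned reads to mm9 with LifeScope 2.1, applied an upper limit of 10 alignments per read and a screen for structural RNA and repeats, and deposited the count of unique reads per Ensembl gene with an RPKM value, which the authors scaled by exon length and library size. RPKM of the deposited files was used for levels between genes and in limma. The counts of the 2 barcodes of each PND 7 mouse were summed and their RPKM values averaged, since they are 1 mouse, and 0 columns were left unmapped.

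Counts of all 10 mice were fitted with edgeR 4.0.16 (TMM, default expression filter, quasi-likelihood test, age as the factor) in R 4.3.3. DESeq2 1.42.0 and limma 3.58.1, the latter on log2(RPKM + 1) with the study's limits of p under 0.01 and a difference of 10 RPKM, were alternatives, together with other scalings, filters, sample sets and leaving out each mouse. The code was tested on simulated data. Totals of 7037654 to 9656345 counts per mouse put the limit for 0 counts at 0.300 to 0.403 CPM in a single mouse. Mouse numbers were not taken to pair mice, as the deviations of equally numbered mice from their age means had r = -0.026. Gene positions are those of mm9, and promoters come from RefSeq tables on GRCm38.p6, matched by symbol.

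The members and lists were chosen with earlier results of these data known. Named genes are members of the lists or of the gene pairs, the 10 largest rises and falls among called genes averaging 10 CPM or more, no overlap between ages and mice of an age within 2-fold, the 5 largest rises and falls among non-coding genes by the same limits, and the 10 largest ratios of PND 14 mouse 1 to mouse 2 among genes with at least 10 CPM in mouse 1. Some listed genes are not reported here by name.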

Additional observations from a re-analysis of the deposited data

How the results depend on the processing

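Of 596 named or listed genes, 546 had a value under each of 8 alternatives (DESeq2, library totals, only the 4 mice, the replicate block and leaving out each mouse), and 454 of these had the same call under each. The other 50 were without a value in at least 1 of these fits, and no called gene changed direction in the fits that gave it a value. The 3191 calls (2275 higher, 916 lower) became 2034 (1430 and 604) with only the 4 mice and 1740 (1477 and 263) at a fold of at least 4, and genes called lower became 1385 with the PND 7 barcodes kept separate. Leaving out 1 mouse gave 2002 (without PND 7 mouse 2) to 4409 (without PND 7 mouse 1) calls, 2086 without PND 14 mouse 2, 282 (without PND 14 mouse 2) to 1409 (without PND 7 mouse 1) genes called lower, 411 without PND 7 mouse 2, and 68.0% to 86.5% of calls higher. A fit with the mouse number as a replicate block called 2164 higher and 783 lower, and DESeq2 2411 and 976. The study's limits in limma called 978 of 26788 genes (3.65%), 861 higher and 117 lower, which became 2352 (1823 and 529) with no RPKM difference required and 603 (569 and 34) with Benjamini-Hochberg adjusted p, and leaving out 1 mouse gave 69 (without PND 7 mouse 2) to 161 lower. Called list members were 2 for undifferentiated spermatogonia with library totals or without small structural and mitochondrial RNAs, 2 for DNA replication with RLE scaling, separate barcodes or DESeq2, 13 for the acrosome and 7 for late spermatid markers with only the 4 mice, 8 for Sertoli cells with no filter, and 2 for vascular cells with no filter or separate barcodes. Leaving out 1 mouse gave 1 to 4 for undifferentiated spermatogonia, 2 to 5 for retinoic acid, 1 to 2 for DNA replication, 9 to 21 for cyclins and kinases, 9 to 21 for late spermatid markers, 3 to 6 for Sertoli, 5 to 10 for Leydig, 3 to 10 for peritubular and 0 to 1 for vascular cells. Fewer samples enter the fits that leave out mice, and the cause of the other shifts was not tested.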

Other observations

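Of 1039 tested non-coding genes, edgeR called 169 (16.3%) higher and 45 (4.33%) lower, beside 13.5% and 5.43% of all genes. The 5 largest rises were Gm14244, Gm10505, 4930463O16Rik, 1700006J14Rik and 1700029M20Rik. Gm10505 had no count in the PND 7 mice and 49.0 and 42.9 CPM in PND 14 mouse 1 and mouse 2, and 1700006J14Rik had none and then 23.3 and 22.1 CPM. The 5 largest falls were H19, Rian, Dnm3os, Gm2044 and Mirg, of which H19, Rian and Mirg are imprinted. Dnm3os, a host transcript of microRNAs in mesenchyme, fell from 121 and 136 CPM to 28.6 and 19.98 CPM, with a log2 fold change of -2.40.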
